A study of Homo sapiens with 12 samples.

Results

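The 10 genes described here are regulators of the integrated stress response: the transcription factors ATF4, ATF3, ATF5, CEBPB, CEBPG and DDIT3 (which encodes CHOP), and the effectors and feedback genes TRIB3, CHAC1, PPP1R15A and DDIT4. They were taken by symbol from the annotation of the array, 10 of 19775 genes with a probe set of their own, and all 10 have values. Transcript levels were measured in HK-2, an immortalised line of human renal proximal tubule cells, with 3 biological replicates in each of 4 groups: a high dose of a compound labelled Kbr for 48 h, vehicle control for 48 h, Kbr for 24 h, and vehicle control for 24 h. All cultures shared a defined medium with EGF, insulin, transferrin, hydrocortisone and selenite, and 1 cell line stands for the tubule. The submitters looked for expression signatures of kidney toxicity, and the sources used here give no concentration for the label "high".

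In the integrated stress response, kinases that sense endoplasmic reticulum stress, amino acid shortage, haem shortage or double-stranded RNA phosphorylate the translation factor eIF2. General protein synthesis then slows, while ATF4 messenger RNA is translated more, so ATF4 protein can rise with little change of its transcript. ATF4 and its dimer partners bind C/EBP-ATF elements in genes for amino acid supply and in the genes of the stress factors themselves, among them DDIT3, ATF3, TRIB3 and CHAC1. PPP1R15A closes the loop by bringing a phosphatase to eIF2. Renal tubule cells, with their heavy transport and secretory load, are a tissue in which this response is often studied under toxicant exposure.

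Each array gives a log2 GCRMA value, an intensity corrected for background binding, for 54675 probe sets. Array medians were 2.89 to 2.96, and 39.1% to 39.9% of probe sets were brighter than log2 4, the level used as a filter. In Kbr 48 h replicate 3 the root mean square deviation from the group mean was 0.290, against 0.164 to 0.228 in the other 11 arrays, and the counts and the values of the 10 genes that move most without it are given both ways. Of 14 proximal tubule markers only SLC3A1, GATM and CDH6 passed that level in 3 or more arrays, and the other 11, LRP2, CUBN and AQP1 among them, were at or under it throughout. The summed level of that marker list was 10.2 to 10.6 in Kbr and 12.6 to 13.2 in control arrays at 48 h, and that of 6 fibroblast markers 10.2 to 10.6 in Kbr and 12.3 in all control arrays (log2), with COL1A2, PDGFRA and PDGFRB at or under the filter level throughout. The endothelial and leukocyte list overlapped at 48 h between Kbr, 5.77 to 5.94, and control arrays, 5.77 to 5.81. A squamous epithelium list overlapped at 48 h too, at 11.53 to 11.59 in Kbr and 11.46 to 11.85 in control arrays. The list of other nephron segments stood at 7.82 to 8.22 in Kbr and 9.58 to 9.89 in control arrays at 48 h. At 24 h all of these lists stood apart. The tubule list was at 11.5 to 12.1 in Kbr and 12.7 to 13.1 in control arrays. The fibroblast list was at 11.4 to 11.8 and 12.4 to 12.9, and the other segments at 8.47 to 8.57 and 9.05 to 9.44. The endothelial and leukocyte list was slightly higher in Kbr, at 5.801 to 5.81 against 5.741 to 5.785 in control arrays. The squamous list was at 11.467 to 11.675 in Kbr and 11.855 to 11.958 in control arrays. The array controls for 18S ribosomal RNA read 8.32 to 8.79 in Kbr and 7.93 to 8.31 in control arrays at 48 h, with 7.82 to 8.35 in Kbr and 7.53 to 7.75 in control arrays at 24 h. Those for 28S read 10.3 to 10.5 in Kbr and 9.70 to 9.84 in control arrays at 48 h, with 9.86 to 10.4 in Kbr and 9.38 to 9.55 in control arrays at 24 h. For 18S Kbr 48 h replicate 3, at 8.65, lay inside its group's range. For 28S that array was the highest of its group, at 10.55 against 10.44 and 10.33. The part of these shifts in the results below was not tested, and in these bulk samples fewer cells of a kind and less RNA per cell cannot be told apart.

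At 48 h, 5 of the 10 genes rose in Kbr cultures (ATF3, DDIT3, PPP1R15A, ATF5 and CEBPB) and DDIT4 fell. ATF4, CEBPG, TRIB3 and CHAC1 did not pass the test. A gene is named as changed, or called, at an adjusted p under 0.05 in limma over 10574 tested genes. Of all tested genes 26.9% were called higher and 32.8% lower at 48 h. The median log2 fold change was 0.86 over the 10 genes and -0.06 over all tested genes. At 24 h only ATF5 rose and DDIT4 fell, where 12.4% of all tested genes were called higher and 20.0% lower, with medians of 0.23 and -0.06.

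**Figure D1:**
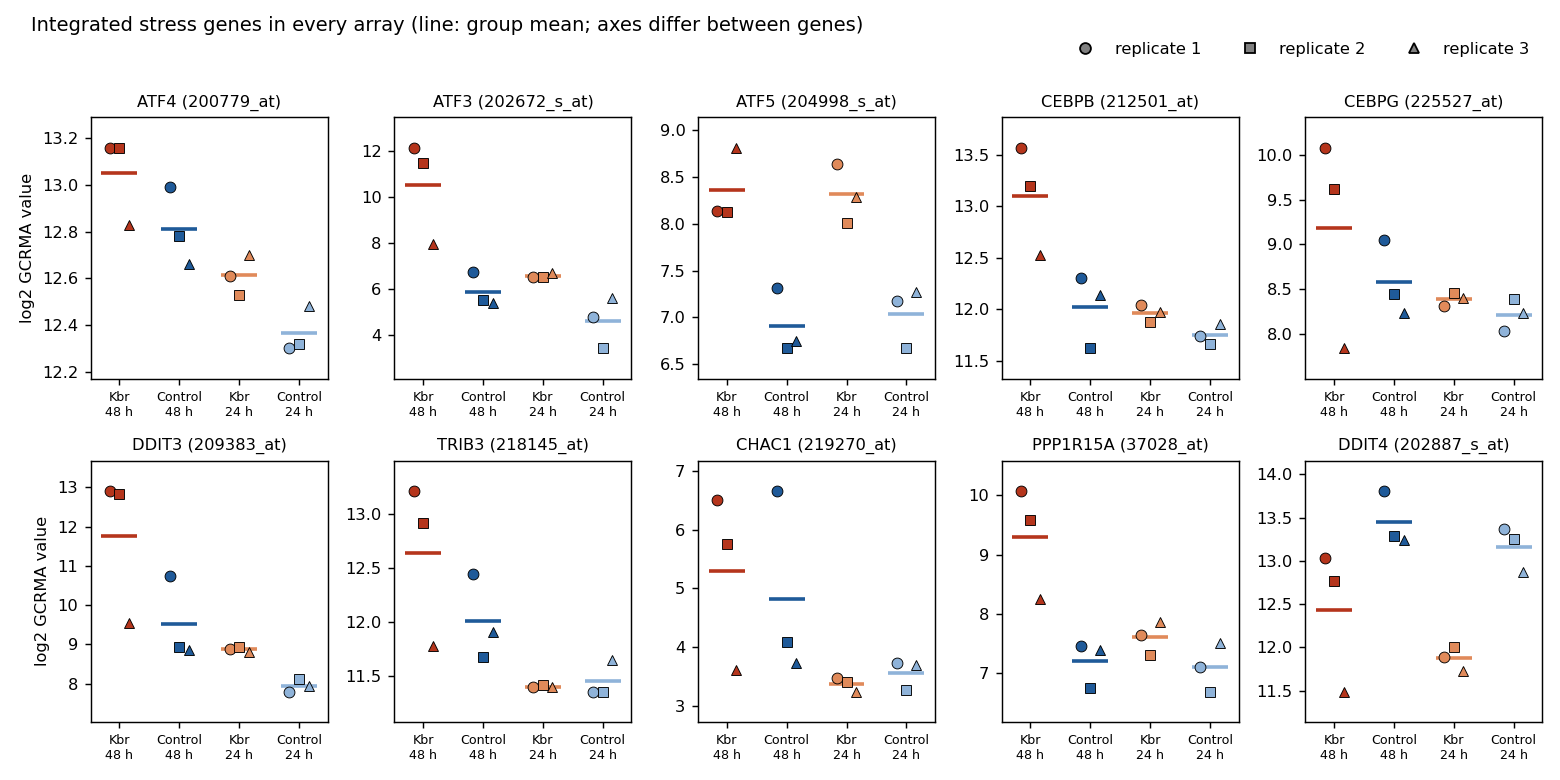
Log2 GCRMA values (y axis, a separate scale for each gene) of the 10 genes in every array, by group (x axis), with symbols for replicate numbers and lines for group means of 3 arrays. In ATF3, DDIT3, PPP1R15A and CEBPG, Kbr 48 h replicates 1 and 2 stand above replicate 3, whereas ATF5 reads highest in replicate 3 and DDIT4 is lower in Kbr than in control arrays.

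ATF4, the factor after which this branch is named, changed little at the transcript level. Its probe set 200779_at read 13.16, 13.16 and 12.83 in Kbr 48 h arrays (replicates 1, 2 and 3), against 12.99, 12.78 and 12.66 in control 48 h arrays. At 24 h it read 12.61, 12.53 and 12.70 in Kbr and 12.30, 12.32 and 12.48 in control arrays. The groups overlapped at 48 h and stood apart by a small step at 24 h. The log2 fold change was 0.24 at 48 h (SE 0.12, adjusted p = 0.109) and 0.25 at 24 h (SE 0.12, adjusted p = 0.144), and neither was called. Without Kbr 48 h replicate 3 the 48 h difference was 0.35 and called (adjusted p = 0.0232), as it was at 0.33 (adjusted p = 0.0483) when control 48 h replicate 1 was left out. With time, Kbr 48 h exceeded Kbr 24 h cultures by 0.44 (SE 0.12, adjusted p = 0.0331), and control 48 h exceeded control 24 h cultures by 0.45 (SE 0.12, adjusted p = 0.0665, or 0.0299 in the fit blocked on replicate number).

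ATF3, a stress-induced bZIP factor that dimerises with ATF4-family and AP-1 proteins, had the largest fold change of the 10 genes at 48 h. Probe set 202672_s_at read 12.17, 11.48 and 7.94 in Kbr 48 h arrays, against 6.74, 5.53 and 5.37 in control 48 h arrays. Replicates 1 and 2 carried a far higher level than replicate 3, yet even replicate 3 lay above all 3 controls. The 48 h log2 fold change was 4.65 (SE 0.93, adjusted p = 0.00128), about 25.1-fold, and 5.95 (SE 0.57) without replicate 3. At 24 h it read 6.52, 6.53 and 6.68 in Kbr arrays, against 4.76, 3.40 and 5.58 in control arrays, a difference of 2.00 (SE 0.93, adjusted p = 0.121). These groups did not overlap, and the adjusted p was 0.0259 when only the 24 h groups were fitted and 0.0137 without Kbr 48 h replicate 3, since the 4 groups share 1 estimate of the spread. Over the alternatives its 24 h difference ranged from 0.20, with the choice of another probe set, to 2.50. A second ATF3 probe set, 1554980_a_at, read 9.44, 8.86 and 4.23 in Kbr 48 h and 3.90 to 4.02 in control 48 h arrays, and 0.20 (SE 1.01, adjusted p = 0.908) separated Kbr from control at 24 h. Its control values lie near the bottom of the scale, and the remaining one, 1554420_at, stayed between 2.08 and 2.81.

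DDIT3 encodes CHOP, the C/EBP-family factor linked to cell death under prolonged stress. Probe set 209383_at read 12.91, 12.83 and 9.55 in Kbr 48 h arrays, against 10.74, 8.93 and 8.87 in control 48 h arrays. The high Kbr pair and the low Kbr replicate 3 lie on either side of the highest control, replicate 1, so the groups overlapped. The log2 fold change was 2.25 (SE 0.77, adjusted p = 0.0266), or 3.36 (SE 0.45, adjusted p = 0.000152) without Kbr 48 h replicate 3. It was no longer called once Kbr 48 h replicate 1 or 2 was left out (adjusted p = 0.105 each), likewise control 48 h replicate 2 (0.0837) or 3 (0.0872), with only the 48 h groups fitted (0.0934) and with no expression filter (0.084). At 24 h the values were 8.89, 8.94 and 8.81 in Kbr and 7.80, 8.12 and 7.93 in control arrays. All 3 Kbr arrays were higher by a similar step of about 0.93 (SE 0.77, adjusted p = 0.383, but 0.00299 when only the 24 h groups were fitted, without the wide spread at 48 h). Control cultures read higher at 48 h than at 24 h in all arrays, by 1.56 (SE 0.77, adjusted p = 0.271).

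PPP1R15A encodes GADD34, the subunit that directs protein phosphatase to eIF2 and so ends the response. Probe set 37028_at read 10.08, 9.58 and 8.26 in Kbr 48 h arrays, against 7.46, 6.75 and 7.39 in control 48 h arrays. All Kbr arrays lay above all controls. The log2 fold change was 2.10 (SE 0.40, adjusted p = 0.00102), and it stayed called in each of 20 alternatives, between 1.72 and 2.63. At 24 h it was 0.50 (SE 0.40, adjusted p = 0.369), with overlapping groups. Its other probe set, 202014_at, gave 2.53 (SE 0.49, adjusted p = 0.00118) at 48 h and 0.62 (SE 0.49, adjusted p = 0.369) at 24 h.

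The C/EBP factors are dimer partners of ATF4 and CHOP. CEBPB, which also serves inflammatory and differentiation programmes, read 13.57, 13.20 and 12.53 in Kbr 48 h arrays, against 12.30, 11.62 and 12.14 in control 48 h arrays (212501_at). The groups did not overlap, and the log2 fold change was 1.08 (SE 0.24, adjusted p = 0.00248), or 1.37 without Kbr 48 h replicate 3, with 0.21 (SE 0.24, adjusted p = 0.526) at 24 h. CEBPG, a C/EBP protein without a transactivating region of its own, depended on the probe set. The brighter one, 225527_at, read 10.08, 9.62 and 7.84 in Kbr 48 h arrays, against 9.05, 8.45 and 8.23 in control 48 h arrays. Here replicate 3 of Kbr lay under every control, and the difference was 0.60 (SE 0.45, adjusted p = 0.276, or 0.000906 at 1.27 without that array). The other, 204203_at, read 10.31, 10.11 and 9.11 in Kbr 48 h arrays, against 8.08, 7.56 and 8.01 in control 48 h arrays. With this probe set the groups stood apart, at 1.96 (SE 0.26, adjusted p = 0.000112) at 48 h and 0.52 (SE 0.26, adjusted p = 0.167) at 24 h.

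ATF5, a bZIP factor controlled at translation much as ATF4 is and linked to mitochondrial stress, was the 1 gene of the set that rose at both times. Probe set 204998_s_at read 8.13, 8.12 and 8.81 in Kbr 48 h arrays, against 7.31, 6.67 and 6.75 in control 48 h arrays. At 24 h it read 8.64, 8.01 and 8.28 in Kbr and 7.18, 6.67 and 7.27 in control arrays. No Kbr array overlapped a control of its time, and Kbr 48 h replicate 3 was the highest of its group. The log2 fold change was 1.44 (SE 0.25, adjusted p = 0.000556) at 48 h and 1.27 (SE 0.25, adjusted p = 0.00373) at 24 h. Both calls held in every alternative, with 48 h changes between 0.65 and 1.64 and 24 h changes between 0.55 and 1.42. Of its other probe sets, 204999_s_at gave 1.28 (SE 0.33, adjusted p = 0.00741) at 48 h and 0.89 (SE 0.33, adjusted p = 0.0716) at 24 h, 230938_x_at ranged from 4.48 to 4.95 and 217389_s_at from 3.92 to 4.01 over all arrays.

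TRIB3 and CHAC1 are well-known downstream genes of ATF4 and CHOP. TRIB3, a pseudokinase that restrains AKT and feeds back on ATF4, read 13.21, 12.91 and 11.78 in Kbr 48 h arrays, against 12.44, 11.68 and 11.91 in control 48 h arrays (218145_at). At 24 h the Kbr arrays read 11.40, 11.42 and 11.40 and the control arrays 11.36, 11.36 and 11.65. The groups overlapped at both times, with log2 fold changes of 0.63 (SE 0.31, adjusted p = 0.103) at 48 h and -0.05 (SE 0.31, adjusted p = 0.923) at 24 h. Without Kbr 48 h replicate 3 the 48 h change was 1.05 and called (adjusted p = 0.00123). The other TRIB3 probe set, 1555788_a_at, read 10.67, 10.16 and 9.30 in Kbr 48 h arrays, against 9.74, 8.35 and 9.35 in control 48 h arrays. It gave 0.90 (SE 0.39, adjusted p = 0.0732) at 48 h and -0.08 (SE 0.39, adjusted p = 0.901) at 24 h. CHAC1, an enzyme that breaks down glutathione, read 6.50, 5.76 and 3.60 in Kbr 48 h arrays, against 6.66, 4.09 and 3.72 in control 48 h arrays (219270_at). The highest value of all 12 arrays was thus a control, replicate 1, and every 24 h array read between 3.24 and 3.73. The 48 h difference was 0.46 (SE 0.78, adjusted p = 0.633), and 1.31 (adjusted p = 0.131) without Kbr 48 h replicate 3. It turned to -0.15 without Kbr 48 h replicate 1 and to -0.09 without control 48 h replicate 3.

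DDIT4, which encodes the mTORC1 inhibitor REDD1 and is a common ATF4 target, went the other way. Probe set 202887_s_at read 13.03, 12.77 and 11.49 in Kbr 48 h arrays, against 13.81, 13.29 and 13.24 in control 48 h arrays. At 24 h it read 11.89, 12 and 11.73 in Kbr and 13.37, 13.25 and 12.87 in control arrays. Every Kbr array lay under every control of its time. The log2 fold change was -1.01 (SE 0.33, adjusted p = 0.0218) at 48 h and -1.29 (SE 0.33, adjusted p = 0.0136) at 24 h, with -0.54 (SE 0.20, adjusted p = 0.0394) at 48 h without Kbr 48 h replicate 3. The 48 h call ended without control 48 h replicate 1 (adjusted p = 0.084), with only the 48 h groups fitted (0.0724) and with no expression filter (0.0671), and the 24 h call without control 24 h replicate 1 (0.0537). In order, its level was highest in control 48 h (13.44 ± 0.31), then control 24 h (13.16 ± 0.26), Kbr 48 h (12.43 ± 0.83) and Kbr 24 h (11.87 ± 0.14; mean ± SD, n = 3 each), and the arrays of each pair of neighbours in that order overlapped.

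**Figure D2:**
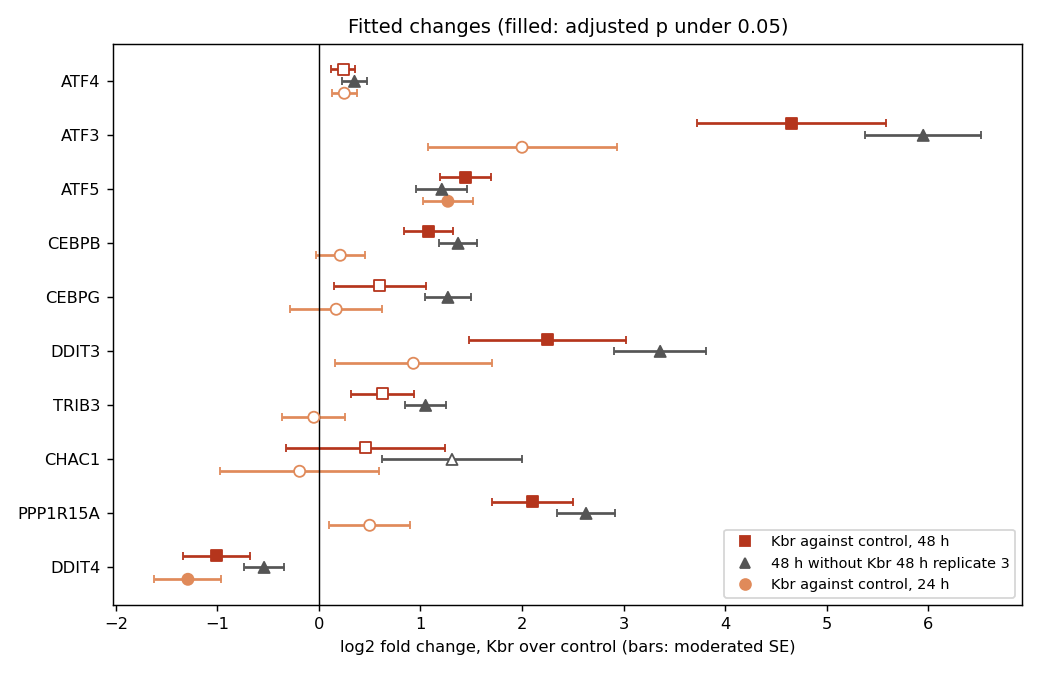
Log2 fold change of Kbr over control (x axis) with its moderated SE for each gene at 48 h, at 48 h without Kbr 48 h replicate 3, and at 24 h. Filled symbols passed an adjusted p under 0.05; without that array CEBPG, TRIB3 and ATF4 join the called genes at 48 h and DDIT4 moves towards 0, at -0.54.

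Counted over the set, the Kbr arrays lay wholly above the controls at 48 h in ATF3, ATF5, CEBPB and PPP1R15A and wholly under them in DDIT4. Over all tested genes 28.6% stood apart with Kbr higher and 34.2% with Kbr lower at that time. At 24 h ATF3, ATF4, ATF5, CEBPB and DDIT3 stood wholly above and DDIT4 wholly under the controls, against 22.4% and 29.2% of tested genes. Without Kbr 48 h replicate 3, 8 of the 10 genes rose at 48 h and 1 fell, CHAC1 alone staying uncalled, where 27.5% and 31.7% of tested genes were called higher and lower.

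Promoter sequences are shown for the members that hold a known stress element, since several of the 10 genes, with and without such an element, read highest in Kbr 48 h replicates 1 and 2 of their group. RefSeq promoters (GRCh38.p14, 250 bases before to 50 after a transcription start) were found for all 10 genes, with 19 start sites in all. The core of the C/EBP-ATF element, TGATGNAA on either strand, occurred in promoters of 3 of the 10 genes and of 4.46% of 27305 genes. The cAMP response element TGACGTCA, a palindrome that ATF-family dimers can bind, occurred in 1 of the 10 and in 2.25% of all genes. The 10 genes had 19 promoters and the 27305 genes 35116, so the shares per gene do not rest on equal numbers of windows. Per promoter the 2 motifs occurred in 3.62% and 1.85% of the 35116. These matches are letters in a window and not measured binding, and no gene of the set held both motifs. Each stretch below is 100 bases of the plus strand, on which all 4 genes lie, with the match in capitals.
CHAC1, chr15:40953221-40953320, match 209 to 202 bases before the start, as the reverse complement: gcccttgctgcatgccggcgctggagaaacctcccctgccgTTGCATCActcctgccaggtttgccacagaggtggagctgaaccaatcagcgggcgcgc
CEBPG, chr19:33374025-33374124, match 42 to 35 bases before the downstream of its start sites: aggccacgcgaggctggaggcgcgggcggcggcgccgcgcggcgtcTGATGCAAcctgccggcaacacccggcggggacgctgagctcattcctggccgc
ATF3, chr1:212565170-212565269, match 191 to 184 bases before the upstream of its start sites: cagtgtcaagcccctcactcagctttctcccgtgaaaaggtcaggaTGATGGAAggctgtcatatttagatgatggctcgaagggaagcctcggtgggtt
PPP1R15A, chr19:48872317-48872416, cAMP response element 58 to 51 bases before the start: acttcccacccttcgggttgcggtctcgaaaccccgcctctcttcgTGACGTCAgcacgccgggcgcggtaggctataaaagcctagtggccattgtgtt

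Of the genes shown, ATF3 and PPP1R15A rose at 48 h, and CEBPG and CHAC1 did not pass the test. No match in the promoters of the other 6 genes says only that these letters are absent from those windows.

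The set varied widely among the Kbr 48 h arrays. Kbr 48 h replicate 3 was the lowest of its 3 arrays in 9 of the 10 genes, ATF5 being the exception, where the same array was lowest in 41.7% and highest in 36.0% of all tested genes. The mean of replicates 1 and 2 exceeded replicate 3 by 3.89 in ATF3, 3.32 in DDIT3, 2.53 in CHAC1, 2.01 in CEBPG, 1.57 in PPP1R15A, 1.41 in DDIT4 and 1.28 in TRIB3 (log2). A gap of over 1 in either direction, a size chosen after the values were seen, was met by these 7 genes and by 3.5% of tested genes. Control 48 h replicate 1 was the highest control of its time in all 10 genes, and in 34.1% of tested genes.

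**Figure D3:**
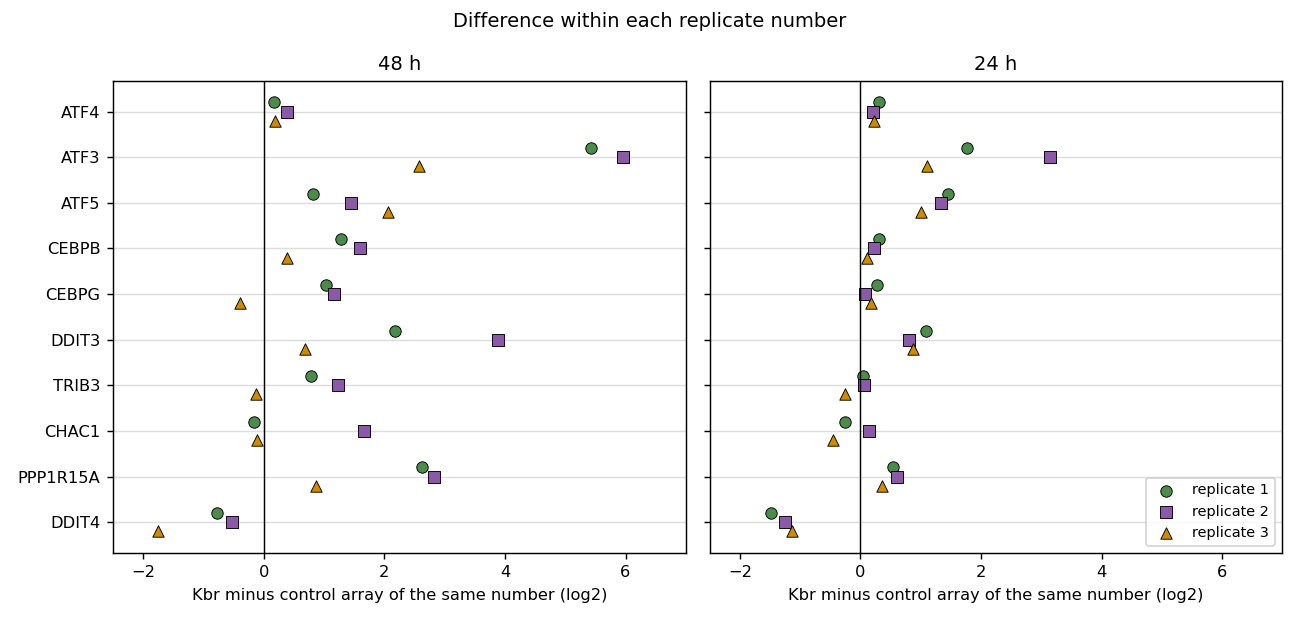
Kbr minus control array of the same replicate number (x axis, log2) for each gene at 48 h and 24 h. At 48 h the differences of ATF3 run from 2.57 to 5.96 and those of DDIT3 from 0.68 to 3.89, with replicate 3 lowest in both, while at 24 h those of DDIT3 lie between 0.81 and 1.09.

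The replicate numbers pair arrays across groups, so differences were also read within a number. In ATF3, the most changed member, Kbr exceeded control by 5.43, 5.96 and 2.57 at 48 h and by 1.76, 3.14 and 1.10 at 24 h. DDIT3 differed by 2.18, 3.89 and 0.68 at 48 h and by 1.09, 0.81 and 0.88 at 24 h. CHAC1 differed by -0.16, 1.67 and -0.12 at 48 h, so that only replicate 2 showed a higher level in Kbr. PPP1R15A was higher in all 3 pairs at both times, by 2.62, 2.83 and 0.86 at 48 h and 0.54, 0.61 and 0.35 at 24 h, and DDIT4 lower in all 6, by -0.78, -0.52 and -1.75 at 48 h and -1.48, -1.25 and -1.14 at 24 h.

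Whether the Kbr effect itself differed between 48 h and 24 h was tested as an interaction. None of the 10 genes passed in limma (2 at an unadjusted p under 0.05), with differences (48 h minus 24 h) of 2.65 in ATF3 (SE 1.31, adjusted p = 0.244), 1.60 in PPP1R15A (SE 0.57, adjusted p = 0.116), 1.32 in DDIT3 (SE 1.09, adjusted p = 0.507) and 0.87 in CEBPB (SE 0.34, adjusted p = 0.145). Of all tested genes 2.09% passed as higher and 3.49% as lower. With every probe set tested, the less bright CEBPG probe set, 204203_at, gave 1.43 (SE 0.37, adjusted p = 0.0537). Without Kbr 48 h replicate 3, ATF3, CEBPB, CEBPG, DDIT3, PPP1R15A and TRIB3 passed as higher, with 7.74% and 6.52% of tested genes called higher and lower. ATF5 and DDIT4 stayed uncalled in that fit too, at -0.06 (adjusted p = 0.936) and 0.75 (adjusted p = 0.0944).

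Within Kbr cultures, 48 h against 24 h, ATF3, ATF4, CEBPB, DDIT3, PPP1R15A and TRIB3 rose and none fell, where 7.12% and 10.0% of tested genes were called higher and lower. ATF3 rose by 3.95 (SE 0.93, adjusted p = 0.0173), DDIT3 by 2.88 (SE 0.77, adjusted p = 0.0293), PPP1R15A by 1.70 (SE 0.40, adjusted p = 0.018) and TRIB3 by 1.23 (SE 0.31, adjusted p = 0.0233). CEBPG was not called with its brighter probe set (0.79, SE 0.45, adjusted p = 0.258). With every probe set tested, its other one, 204203_at, rose by 1.27 (SE 0.26, adjusted p = 0.0118). CHAC1 passed the filter only through 48 h arrays and every 24 h array lay under it, so its difference of 1.91 (SE 0.78, adjusted p = 0.116, or 0.0431 when blocked on replicate number) is against background and was not read as a change. These counts moved with single arrays: 1 gene was called without Kbr 48 h replicate 1, without Kbr 48 h replicate 2 or without Kbr 24 h replicate 1, 2 without Kbr 24 h replicate 2 or 3, and 9 (CHAC1 among them) without Kbr 48 h replicate 3, where the shares of tested genes were 13.7% and 13.3%. In control cultures, 48 h against 24 h, 0 of the 10 genes were called in limma (1 at an unadjusted p under 0.05), against 1.73% higher and 2.30% lower of tested genes. DDIT3 (1.56), ATF3 (1.30, SE 0.93) and CHAC1 (1.26, SE 0.78) had the largest point estimates there.

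Likeness to ATF4 and DDIT3 over the 12 arrays is given as Pearson's r, a description over arrays that share treatment, time and replicate number. The genes outside the set nearest to DDIT3 were CTH, a cysteine-forming enzyme (r = 0.980), ZSCAN12 (0.974), RMP24 (0.969), DNAJB9, an endoplasmic reticulum co-chaperone (0.968), and SLC22A15 (0.968). CTH read 11.56, 11.13 and 8.44 in Kbr 48 h arrays, against 8.91, 7.92 and 8.02 in control 48 h arrays, the same high pair and low replicate 3 as DDIT3. Nearest to ATF4 were HINFP (0.953), EPC2 (0.939), CFAP97 (0.935), RMP24 (0.923) and CCNB1IP1 (0.922). Among the 10 genes r with DDIT3 was 0.951 for TRIB3, 0.936 for CEBPB, 0.931 for ATF3 and 0.928 for ATF4, and it was 0.372 for ATF5 and 0.095 for DDIT4.

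A list around eIF2 held its kinases and their regulators, subunits of eIF2 and eIF2B, and phosphatase subunits. Of its 21 genes 7 (33.3%) rose and 3 (14.3%) fell at 48 h (median 0.08), beside 26.9% and 32.8% of all tested genes. At 24 h 3 rose and 3 fell (14.3% each, median -0.04), beside 12.4% and 20.0%, or 5 and 3 without Kbr 48 h replicate 3, where 14.3% and 22.4% of all tested genes were called. With the replicate block 7 rose and 7 fell at 48 h, beside 31.3% and 38.1% of all tested genes in that fit, and 4 rose and 5 fell at 24 h, beside 18.6% and 29.4%. EIF2AK3, the kinase PERK of the endoplasmic reticulum, rose by 1.31 at 48 h (SE 0.21), reading 11.05, 10.89 and 10.15 in Kbr and 9.31, 9.19 and 9.66 in control arrays. DNAJC3, a co-chaperone known as an inhibitor of these kinases, rose by 2.02 (SE 0.37), again lowest in Kbr replicate 3 (2.57 without it). IMPACT, which restrains the amino acid sensor GCN2, fell by 1.93 (SE 0.24) and OMA1, a mitochondrial protease, fell by 1.24 (SE 0.21). At 24 h EIF2AK2, the double-stranded RNA kinase, rose by 0.52 (SE 0.11), a call lost (adjusted p = 0.0581) where probe sets whose names carry no suffix are preferred, and EIF2S1, which encodes eIF2 alpha itself, by 0.53 (SE 0.10). IMPACT fell at 24 h by 0.79 (SE 0.24), but leaving out any of 4 arrays ended the call: Kbr 24 h replicate 2 (adjusted p = 0.0725) or 3 (0.0828), or control 24 h replicate 1 (0.0846) or 3 (0.0604). DELE1, which relays mitochondrial stress to the kinase HRI, fell by 0.58 (SE 0.16), but stood at 0.06 with unsuffixed probe sets. Its adjusted p was 0.0657 with Kbr 24 h replicate 3 left out and 0.0616 with control 24 h replicate 2 left out.

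Of 38 tested ATF4 target enzymes, carriers and tRNA synthetases, 13 (34.2%) rose and 4 (10.5%) fell at 48 h (median 0.24), beside 26.9% and 32.8% of all tested genes. Without Kbr 48 h replicate 3 20 rose and 2 fell (median 0.50), beside 27.5% and 31.7%. The list also holds genes of other kinds. With all arrays GDF15 (2.07) and VEGFA (2.22) are counted among the risers at 48 h, and VLDLR (-0.97) and KLHL24 (-0.95) among those that fell. JDP2 is counted here and among the bZIP factors below, and SESN2 and EIF4EBP1 here and in the mTORC1 list. Of the amino acid carriers SLC7A5 rose by 2.90 (SE 0.65), SLC7A11, which imports cystine, by 2.77 (SE 0.56), and their shared heavy chain SLC3A2 by 2.63 (SE 0.37). The other carriers, named after their values were seen, did not follow with all arrays kept. SLC1A4 fell by 1.57 (adjusted p = 0.0427), and SLC1A5 (0.25, adjusted p = 0.396), SLC38A2 (0.21, adjusted p = 0.26) and SLC7A1 (0.61, adjusted p = 0.184) were not called. Without Kbr 48 h replicate 3, SLC7A1 (1.19, adjusted p = 0.000261) and SLC38A2 (0.37, adjusted p = 0.0387) were called higher. In that fit SLC1A4 (-0.69, adjusted p = 0.0944) and SLC1A5 (0.35, adjusted p = 0.304) were not called. CBS, which starts transsulfuration, fell by 2.99 (SE 0.25), with Kbr arrays at 5.94, 5.84 and 5.84 and control arrays at 9.26, 8.69 and 8.65, so replicate 3 did not stand apart in it. At 24 h 3 rose and 3 fell (7.89% each, median -0.08), beside 12.4% and 20.0% of all tested genes. Without Kbr 48 h replicate 3, 8 (21.1%) rose and 6 (15.8%) fell at 24 h, beside 14.3% and 22.4%. With the replicate block 5 (13.2%) rose and 4 (10.5%) fell, beside 18.6% and 29.4%. With all arrays and no block, CBS fell at 24 h by 2.26 (SE 0.25) and KLHL24 fell by 1.01 (SE 0.30), while SLC3A2 rose by 1.75 (SE 0.37) and SLC7A11 by 2.07 (SE 0.56). SLC7A11 lost its call where Kbr 24 h replicate 1 (adjusted p = 0.0554) or 2 (0.0518) was left out, likewise control 24 h replicate 1 (0.0569). KLHL24 lost it where Kbr 24 h replicate 3 (adjusted p = 0.0799) was left out, likewise control 24 h replicate 1 (0.0874) or 2 (0.067).

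**Figure D4:**
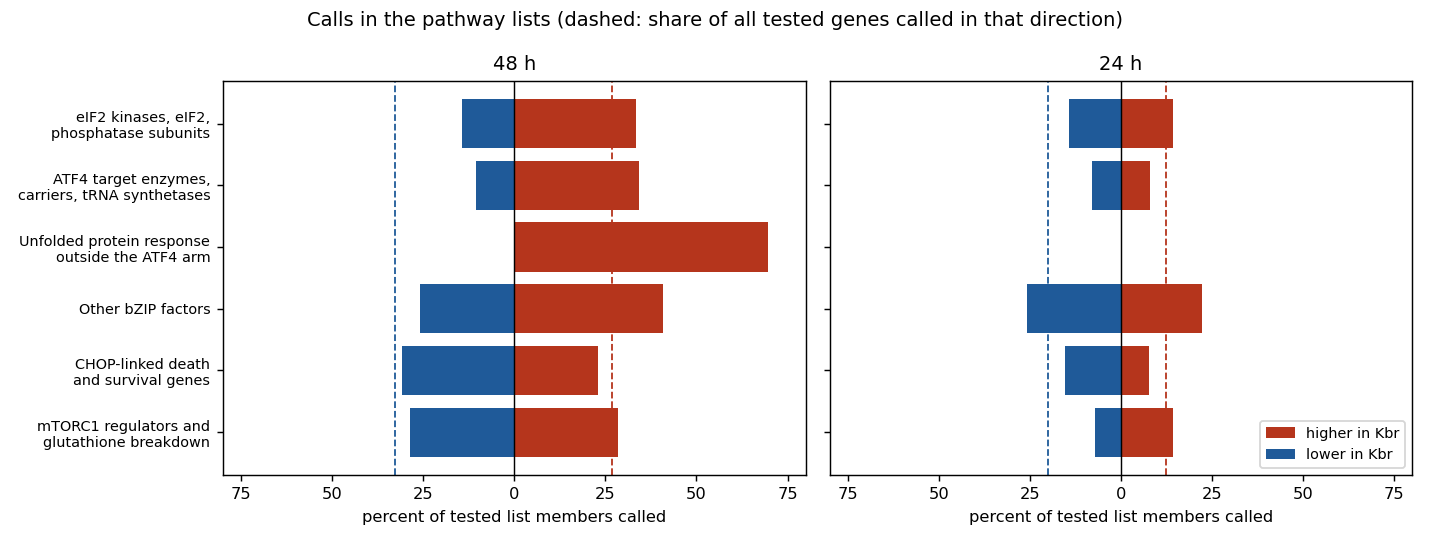
Percent of the tested members of each pathway list called higher (right) or lower (left) in Kbr than in control at 48 h and 24 h, with dashed lines for the same share of all tested genes. The unfolded protein response list has 16 of 23 members higher at 48 h and 0 called at 24 h.

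The unfolded protein response outside the ATF4 branch comprises the chaperone and degradation genes run by ATF6 and XBP1. Of 23 tested members 16 (69.6%) were higher and 0 lower at 48 h (median 0.71), beside 26.9% and 32.8% of all tested genes. ERO1A is among the 16 with its brightest probe set, but fell by 1.04 with an unsuffixed one. Without Kbr 48 h replicate 3, 19 (82.6%) were higher and 0 lower (median 1.08), beside 27.5% and 31.7% of all tested genes. At 24 h 0 were called in limma either way (2 at an unadjusted p under 0.05, median 0.08), beside 12.4% and 20.0% of all tested genes. Without Kbr 48 h replicate 3, 3 (13.0%) were higher at 24 h, beside 14.3% of all tested genes. With the replicate block 2 (8.70%) were higher, beside 18.6%. SDF2L1, a chaperone partner, read 10.86, 10.37 and 8.12 in Kbr 48 h and 6.10, 6.43 and 6.47 in control 48 h arrays, a rise of 3.45 (SE 0.54), or 4.28 without replicate 3. DNAJB11 rose by 1.87 (SE 0.23), DNAJB9 by 1.83 (SE 0.50, or 2.61 without replicate 3) and the chaperone HSPA5, also called BiP, by 1.81 (SE 0.29). DNAJB9 read 12.29, 12.11 and 9.86 in Kbr 48 h arrays against a highest control of 9.86, so the low replicate 3 seen in DDIT3 recurred here. HSPA5 stood at 0.63 at 24 h (SE 0.29, adjusted p = 0.119, or 0.00938 without Kbr 48 h replicate 3).

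A list of other bZIP factors, possible partners of the set, had 27 tested genes. Of these 11 (40.7%) rose and 7 (25.9%) fell at 48 h (median 0.11), beside 26.9% and 32.8% of all tested genes. At 24 h 6 (22.2%) rose and 7 (25.9%) fell (median -0.11), beside 12.4% and 20.0%. The list also holds CEBPZ, which carries a C/EBP name but has no bZIP domain. CEBPZ is counted among the risers at both times, at 1.14 (SE 0.10) at 48 h and 0.55 (SE 0.10) at 24 h. ATF6 and XBP1 are counted here and in the unfolded protein response list. JUN, an AP-1 subunit, read 11.02, 10.76 and 10.64 in Kbr 48 h and 8.54, 8.61 and 8.85 in control 48 h arrays, a rise of 2.14 (SE 0.19) with no low replicate 3. FOSL1, another AP-1 subunit, rose by 3.49 at 48 h (SE 0.68), and its Kbr replicate 3 was the highest at 8.40. Its control 48 h arrays read 3.95, 3.15 and 5.38, with replicates 1 and 2 under the filter level, so the size of this change is partly against background. HLF, a circadian-type bZIP factor, fell by 4.24 at 48 h (SE 0.32) and fell by 2.82 at 24 h (SE 0.32). DBP of the same family, counted among the 7 lower at 48 h, passed the filter only through control arrays: it read 3.45, 2.95 and 2.94 in Kbr 48 h arrays, all under the filter level, against 6.28, 5.61 and 4.34 in control 48 h arrays. At 24 h MAFG, a partner of NRF2, rose by 1.22 (SE 0.20), JUNB fell by 1.04 (SE 0.19) and FOSL1 rose by 2.10 (SE 0.68). FOSL1 lost its 24 h call where Kbr 24 h replicate 1 (adjusted p = 0.0929) or 3 (0.106) was left out, likewise control 24 h replicate 1 (0.0655) or 2 (0.122).

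Of 13 tested death and survival genes linked to CHOP, 3 (23.1%) rose and 4 (30.8%) fell at 48 h (median 0.03), near the 26.9% and 32.8% of all tested genes. At 24 h 1 (7.69%) rose and 2 (15.4%) fell (median -0.15), beside 12.4% and 20.0%. With the replicate block 4 (30.8%) rose and 6 (46.2%) fell at 48 h, beside 31.3% and 38.1% of all tested genes. In that fit 1 (7.69%) rose and 3 (23.1%) fell at 24 h, beside 18.6% and 29.4%. PMAIP1, the death-promoting NOXA, read 12.35, 12.42 and 12.51 in Kbr 48 h arrays, against 9.48, 9.67 and 9.99 in control 48 h arrays. It rose by 2.72 (SE 0.23), with replicate 3 the highest Kbr array, and at 24 h it was 1.76 (SE 0.23). BAX fell by 1.00 at 48 h (SE 0.12) and fell by 0.71 at 24 h (SE 0.12). The survival gene MCL1 fell by 1.03 at 48 h and fell by 0.54 at 24 h (SE 0.12 each), but stood at -0.03 and -0.20, not called, with unsuffixed probe sets. ERO1A, an oxidase of the endoplasmic reticulum, rose by 0.72 (SE 0.14) with its brightest probe set and fell by 1.04 with an unsuffixed one, so its direction is unsettled. It is counted among the risers both here and in the unfolded protein response list.

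Around DDIT4, of 14 tested mTORC1 regulators and glutathione-breakdown genes 4 rose and 4 fell at 48 h (28.6% each, median 0.21), near the 26.9% and 32.8% of all tested genes. At 24 h 2 (14.3%) rose and 1 (7.14%) fell (median 0.06), beside 12.4% and 20.0%. Without Kbr 48 h replicate 3, 2 rose and 2 fell at 24 h (14.3% each), beside 14.3% and 22.4% of all tested genes. With the replicate block 3 (21.4%) rose and 2 (14.3%) fell, beside 18.6% and 29.4%. DEPTOR, another mTOR inhibitor, fell by 2.16 at 48 h and fell by 1.92 at 24 h (SE 0.17 each), reading 10.00, 10.40 and 10.21 in Kbr 48 h and 12.30, 12.36 and 12.43 in control 48 h arrays. TSC2 and SESN1, which also restrain mTORC1, fell at 48 h: TSC2 fell by 1.85 (SE 0.45) and SESN1 fell by 1.43 (SE 0.34). TSC2 was not tested where unsuffixed probe sets were preferred. SESN2, TSC1 and AKT1S1, other restraints of mTORC1 named after their values were seen, did not follow. They stood at 1.03 (adjusted p = 0.158), 0.16 (adjusted p = 0.215) and 0.59 (adjusted p = 0.135) at 48 h. SESN2 was called without Kbr 48 h replicate 3 (1.94, adjusted p = 8.03e-05), and AKT1S1 with the replicate block (adjusted p = 0.000277). RHEB, the activator of mTORC1, rose by 0.38 at 24 h (SE 0.09). CHAC2, the close relative of CHAC1, rose by 1.07 at 48 h (SE 0.18) and stood at 0.51 at 24 h (SE 0.18, adjusted p = 0.0485), a call that ended without any of Kbr 24 h replicates 1, 2 and 3 or control 24 h replicates 1 and 2 (adjusted p between 0.0939 and 0.153).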

How the data were processed

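RNA of 12 HK-2 cultures was measured on Affymetrix expression arrays after cRNA labelling, per the labels' protocols. The authors deposited log2 values from GCRMA, which the submitters' processing notes name with no version; detection calls and the genome build are not given in the sources used here. Of 54675 probe sets, 41091 carry 1 gene symbol in the platform annotation, 1801 several, 11721 none, and 62 are controls. The brightest single-gene probe set stood for each of 19775 genes, and 10574 with a log2 value over 4 in at least 3 arrays were tested, all 10 members among them. The members have 18 probe sets, of which 16 passed that level.

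limma 3.58.1 (R 4.3.3) fitted the differences by lmFit and eBayes (12 arrays, 8 residual degrees of freedom, two-sided), with Benjamini-Hochberg adjustment over all tested genes. SE is the moderated standard error. The fit was tested on simulated data. Tables and plots used Python 3.11.15, pandas 2.3.3 and matplotlib 3.10.9. The 3 arrays of a group limit the precision.

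Same-numbered arrays of different groups correlated between 0.232 and 0.633 in their deviations from group means (18 pairs), and differently numbered ones between -0.378 and -0.004 (36 pairs), so the numbers pair the arrays, and a fit with the number as a block was an alternative. All 10 members were named whatever their values. From each pathway list up to 4 called genes with the largest change at each time were named, or the largest uncalled one, and for likeness the 5 nearest tested genes. Members and lists were chosen with earlier results of these data known. CTH is named for its likeness to DDIT3. Alternatives were other thresholds, filters, probe set choices, scalings, variance models and samples, and each array left out in turn.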

Additional observations from a re-analysis of the deposited data

How the results depend on the processing

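Among the 10 genes, 178 of 199 member results at 48 h and 202 of 209 at 24 h kept their direction and their side of the threshold over the alternatives run. For Kbr 48 h against Kbr 24 h 148 of 199 did so, for control 48 h against control 24 h 193 of 199, and for the difference between the times 228 of 249. Under the stricter thresholds (adjusted p 0.01 or a 2-fold change) an uncalled gene could not change side, so that part was fixed in advance. Called genes over the whole array numbered 3429 at 24 h, 1830 at adjusted p 0.01, 766 with a 2-fold change and 2255 to 3880 with single arrays left out. At 48 h they numbered 6306, or 2475 with a 2-fold change. For the difference between the times they numbered 590, against 32 at adjusted p 0.01, 276 with a 2-fold change, 386 with no filter, 1777 with array weights, 2140 with the replicate block and 136 to 1507 with single arrays left out. For Kbr 48 h against Kbr 24 h the count was 1813, against 508 at adjusted p 0.01, 339 with a 2-fold change, 4303 with array weights, 892 with only these groups, 3571 with the replicate block and 720 to 2847 with single arrays left out. For control 48 h against control 24 h it was 426, against 31 at adjusted p 0.01, 98 with a 2-fold change, 230 with no filter, 0 with only these groups in limma, 2202 with the replicate block and 28 to 655 with single arrays left out.

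Members called higher at 24 h numbered 1, with 2 under array weights, 3 with only these groups, and 1 to 2 with single arrays left out; the fit without Kbr 48 h replicate 3 was chosen after seeing the data. The 1 member called lower at 24 h, DDIT4, was lost (0) at adjusted p 0.01, and leaving out arrays gave 0 to 1. At 48 h members called higher numbered 5, with 8 under array weights and 4 to 8 with single arrays left out. The 1 called lower there, also DDIT4, was lost (0) at adjusted p 0.01, with no filter and with only these groups, and leaving out arrays gave 0 to 1. The difference between the times gave 0 members, with 5 under array weights and 0 to 6 with single arrays left out. Kbr 48 h against Kbr 24 h gave 6 members, with 0 at adjusted p 0.01, 1 with no filter, 1 with only these groups and 1 to 9 with single arrays left out. Control 48 h against control 24 h gave 0, with 1 (ATF4) under the replicate block, 1 with an offset of 32, 1 with a trended and robust prior and 0 to 1 with single arrays left out.

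Directions turned in uncalled values. TRIB3 at 24 h (-0.049) ranged from -0.097 to 0.047 and CHAC1 at 48 h (0.462) from -0.145 to 1.381 with single arrays left out. In the difference between the times ATF4 (-0.005) was 0.008 on median-centred arrays, 0.104 under array weights and -0.082 to 0.105 with single arrays left out, ATF5 (0.171) -0.057 to 0.37, CEBPG (0.426) -0.024 to 1.096, and DDIT4 (0.275) -0.025 to 0.746. For Kbr 48 h against Kbr 24 h ATF5 (0.045) was -0.060 with probe sets averaged, -0.156 under array weights and -0.183 to 0.21 with single arrays left out. For control 48 h against control 24 h PPP1R15A (0.099) ranged from -0.107 to 0.324. The cause was not tested. CEBPG at 48 h was called with its probe sets averaged (adjusted p = 0.00853). The replicate block changed 2 member calls, those of CHAC1 and ATF4 over time, and no other. GCRMA values near the bottom of the scale, as for CHAC1 at 24 h, carry little signal over background, and 3 arrays a group with 1 wide one limit what the shared spread can resolve.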
